A study of Mus musculus with 3 samples.

Results

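Immunoglobulin heavy chain (IgH) junctions that lay outside the switch (S) regions Sμ, Sγ1 and Sε were examined in activated mouse B cells. They were taken as all entries of the authors' list of other IgH junctions, and made up 127 of the 2995 junctions of 3 libraries. DNA-PKcs-/- replicate 5 held 96 of its 842 junctions there, PQR/PQR replicate 1 held 25 of 1681, and PQR/PQR replicate 2 held 6 of 472. The libraries came from splenic B cells of strain 129 mice, negative for CD43 and carrying preassembled IgH and Igκ loci, after 4 days with anti-CD40 (1 ng/mL) and IL-4 (20 ng/mL), which drive switching to IgG1 and IgE. DNA-PKcs-/- cells lack the catalytic kinase subunit of classical end joining, and DNA-PKcs PQR/PQR cells are homozygous for an allele changed in one of its phosphorylation clusters. The labels give neither the age of the mice nor whether PQR/PQR replicates 1 and 2 stem from separate mice. Wild-type cells are not analysed here. With 1 library against 2 no exact test between genotypes can reach a p under 1 in 3, so every test below compares libraries, and their spread may be technical.

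During class switch recombination the enzyme AID deaminates cytosines in S regions, repetitive sequences that lie 5′ of each constant gene, and the resulting breaks in Sμ and in a downstream S region are joined. Classical non-homologous end joining, which DNA-PKcs serves, needs little or no shared sequence, while alternative end joining tends to use microhomology (MH), bases that both ends share at the join. Breaks that are resected before joining can be joined beside an S region rather than within it. The genome table used here for gene order gives, in the direction of IgH transcription, Ighm, Ighd, Ighg3, Ighg1, Ighg2b, Ighg2c, Ighe and Igha. The 129 strain carries Ighg2a where the C57BL/6 reference has Ighg2c.

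High-throughput genome-wide translocation sequencing extends a primer in the 5′ part of Sμ (the bait) across a junction into the sequence joined to it (the prey). Coordinates are mm9, and the IgH locus is transcribed from the minus strand of chromosome 12. The listed Sμ, Sγ1 and Sε junctions of DNA-PKcs-/- replicate 5 spanned chr12:114661506-114670810, chr12:114559040-114583198 and chr12:114507352-114516744. Windows of 10, 30 and 10 kb around these spans held all S region junctions of the lists read here and 0 other IgH junctions. The 4 intervals outside the windows are called above Sμ (the side of the variable region), Ighd and Ighg3 (between the Sμ and Sγ1 windows), Ighg2b and Ighg2c (between the Sγ1 and Sε windows), and the Igha side (beyond Sε). Junctions were not assigned to exons or introns, since mm9 gene coordinates were not used here. A prey on the bait's strand gives a deletion when it lies downstream of the bait, and a prey on the opposite strand gives an inversion.

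The bait, as the majority letter of the reads at chr12:114669128-114669257 on the minus strand, is shown because each junction below is a switch from this sequence to another part of the locus. It holds the recognition site of AflII, the enzyme used against germline DNA, CTTAAG, which starts at base 104.

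Bait: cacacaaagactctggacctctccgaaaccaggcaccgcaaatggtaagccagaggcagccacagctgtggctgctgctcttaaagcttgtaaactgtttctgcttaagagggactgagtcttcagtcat

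The join with the longest MH in each interval of DNA-PKcs-/- replicate 5 is shown next, as read from bait (left) to prey (right), with the MH in capitals. After each comes the germline sequence at the prey in the same direction, with the aligned letters in capitals.

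DNA-PKcs-/- above Sμ, 114674797, plus strand: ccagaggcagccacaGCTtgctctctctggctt

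Its germline prey: tgcttatttgGCTtgctctc

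DNA-PKcs-/- Ighd and Ighg3, 114660037, minus strand: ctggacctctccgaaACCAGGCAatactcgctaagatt

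Its germline prey: ctattaggggACCAGTCAat

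DNA-PKcs-/- Ighg2b and Ighg2c, 114529069, minus strand: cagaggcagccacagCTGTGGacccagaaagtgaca

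Its germline prey: ggagaacgtcCTGTGGaccc

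DNA-PKcs-/- Igha side, 114497176, minus strand: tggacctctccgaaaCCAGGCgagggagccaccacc

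Its germline prey: cctaaaggagCCAGGCgagg

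These 4 joins had MH of 3, 8, 6 and 6 bp. The overlap of 8 bp held 1 mismatch to the germline prey, and it was the only one of the library's 78 MH joins whose letters differed from the germline.

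Direct joins, with neither MH nor inserted bases, were few in DNA-PKcs-/- replicate 5, and all 3, on the minus strand, are shown. The bait of the one at 114541365 ends past the stretch of bait printed above.

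DNA-PKcs-/- Igha side, 114499974: gtaagccagaggcagttggctaggctacaa

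DNA-PKcs-/- Ighg2b and Ighg2c, 114541365: tttaactttccttgacagacggaaaggaag

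DNA-PKcs-/- Ighd and Ighg3, 114656243: ccgaaaccaggcaccctgcaagccaggcct

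PQR/PQR replicate 1 had 11 direct joins, and the one of lowest coordinate in each interval is shown for comparison, followed by the longest MH of each interval with an MH join in PQR/PQR replicates 1 and 2.

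PQR/PQR above Sμ, direct, 114671587: gctgctcttaaagctgaccaagattctctg

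PQR/PQR Ighd and Ighg3, direct, 114605529: agagggactgagtctgagctgcccagcctg

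PQR/PQR Ighg2b and Ighg2c, direct, 114546877: acagctgtggctgctataggaatgtggagg

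PQR/PQR Igha side, direct, 114461607: tgtggctgctgctctggctcccacagacct

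PQR/PQR replicate 1 above Sμ, longest MH, 114672061: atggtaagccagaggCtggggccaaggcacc

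PQR/PQR replicate 1 Ighd and Ighg3, longest MH, 114594641: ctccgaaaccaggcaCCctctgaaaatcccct

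PQR/PQR replicate 1 Ighg2b and Ighg2c, longest MH, 114546782: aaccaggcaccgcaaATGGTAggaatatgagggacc

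PQR/PQR replicate 1 Igha side, longest MH, 114501697: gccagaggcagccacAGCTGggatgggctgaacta

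PQR/PQR replicate 2 Ighg2b and Ighg2c, longest MH, 114531771: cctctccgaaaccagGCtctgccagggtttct

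PQR/PQR replicate 2 Igha side, longest MH, 114465913: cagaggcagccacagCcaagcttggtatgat

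The longest of these, with 6 and 5 bp of MH at 114546782 and 114501697, lay inside stretches that DNA-PKcs-/- joins also used. Of the PQR/PQR preys shown, those at 114605529 and 114531771 are on the plus strand and the others on the minus strand.

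Joins outside the S windows took a larger share of the library in DNA-PKcs-/- replicate 5 than in either PQR/PQR library, and this held in 3 of the 4 intervals. In the Ighg2b and Ighg2c interval DNA-PKcs-/- replicate 5 had 43 junctions, 5.11% of all its junctions (95% CI 3.81 to 6.81), while PQR/PQR replicate 1 had 8 (0.476%, 0.241 to 0.936) and PQR/PQR replicate 2 had 1 (0.212%, 0.0374 to 1.19). On the Igha side it had 26 (3.09%, 2.12 to 4.49), while PQR/PQR replicate 1 had 6 (0.357%, 0.164 to 0.777) and PQR/PQR replicate 2 had 4 (0.847%, 0.33 to 2.16). In the Ighd and Ighg3 interval it had 22 (2.61%, 1.73 to 3.92), while PQR/PQR replicate 1 had 4 (0.238%, 0.0926 to 0.61) and PQR/PQR replicate 2 had 1 (0.212%). The confidence intervals of DNA-PKcs-/- and of both PQR/PQR libraries did not overlap for the Ighg2b and Ighg2c and the Ighd and Ighg3 intervals, and overlapped slightly with replicate 2 on the Igha side.

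By two-sided Fisher's exact tests of junction counts, with Benjamini-Hochberg adjustment over 20 tests, Ighg2b and Ighg2c gave 3.18e-13 as the adjusted p with replicate 1 and 2.02e-07 with replicate 2. The Igha side gave 9.80e-08 and 0.0156, and Ighd and Ighg3 gave 2.26e-07 and 0.00121. Above Sμ no difference was detectable at this depth, with 5 junctions in DNA-PKcs-/- replicate 5 (0.594%, 0.254 to 1.38) against 7 (0.416%, 0.202 to 0.857) and 0 in the PQR/PQR libraries, and an adjusted exact p of 0.618 and 0.222. A count of 0 in PQR/PQR replicate 2 allows a share of up to 0.636% when taken as 3 counts of the total, and its Wilson interval reaches 0.807%. With preys of at least 50 bp only, over listed IgH junctions outside Sμ, the Igha side was no longer called (largest adjusted exact p = 0.0526). Polymerase chain reaction reads carried no molecular identifiers, so intervals and limits cover counting error only.

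**Figure D1:**
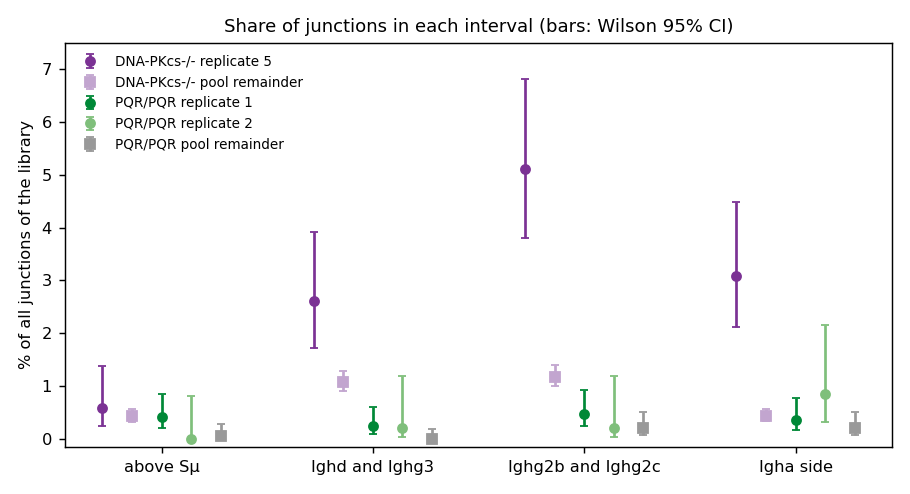
Share of all junctions of a library (vertical axis, %) in each of the 4 intervals, for DNA-PKcs-/- replicate 5, the rest of the DNA-PKcs-/- pool, PQR/PQR replicates 1 and 2, and the rest of the PQR/PQR pool, with Wilson 95% confidence intervals. DNA-PKcs-/- replicate 5 lies above the others in 3 intervals, and above Sμ its 0.594% overlaps the 0.416% of PQR/PQR replicate 1.

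The authors also deposited a pool of each genotype, which contains the libraries above. With those libraries taken out, the rest of the DNA-PKcs-/- pool held 372 other IgH junctions among 11820 (3.15%), and the rest of the PQR/PQR pool held 9 among 2014 (0.447%). The shares of the DNA-PKcs-/- remainder were 1.18% for Ighg2b and Ighg2c, 1.08% for Ighd and Ighg3, 0.44% for the Igha side and 0.431% above Sμ, against 0.199%, 0%, 0.199% and 0.0497% in the PQR/PQR remainder. With the remainders in place of the libraries, the Igha side was no longer called (difference 0.241 points, adjusted exact p = 0.186). The share above Sμ was called (0.382 points, adjusted exact p = 0.0082). Adjustment for the remainders ran over their own tests alone, and a call there needed no agreement between PQR/PQR libraries. DNA-PKcs-/- replicate 5 had 11.4% of its junctions outside the windows where the rest of its genotype's pool had 3.15%. These totals differ in make-up, since Sγ1 junctions were 211 of 842 in DNA-PKcs-/- replicate 5 and 7113 of 11820 in the DNA-PKcs-/- remainder. How many mice the pools hold is not known here, and their Sγ1 junctions took most of the PQR/PQR remainder, which left 228 IgH junctions outside Sγ1. Over IgH junctions outside Sγ1, the remainders held 8.97% (372 of 4145) and 3.95% (9 of 228) other IgH joins, and the Igha side held 1.25% in the DNA-PKcs-/- remainder, against 1.75% in the PQR/PQR remainder. With that denominator the remainders still differed in all other IgH joins (adjusted exact p = 0.0372) and in Ighd and Ighg3 (0.0182). The other intervals were not called. Sequencing run and genotype cannot be told apart between the remainders, and these tests count junctions, not mice. Of their listed other IgH joins, 11 of 371 (DNA-PKcs-/-) and 7 of 9 (PQR/PQR) came from the run of DNA-PKcs-/- replicate 5.

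Most of these joins lay far from the Sμ, Sγ1 and Sε windows rather than just past an edge. S regions of other constant genes had no window here, so a far join may still lie in one of them. A join more than 2 kb from the nearest window edge was called far. In DNA-PKcs-/- replicate 5, 82 joins were far and 14 near, and the median distance to an edge was 9.67 kb. In PQR/PQR replicate 1, 20 were far and 5 near, with a median of 11.2 kb, and all 6 of replicate 2 were far, with a median of 40.4 kb. Both kinds took a larger share in DNA-PKcs-/- replicate 5. Far joins were 9.74% of its junctions (7.92 to 11.9), while PQR/PQR replicates 1 and 2 had 1.19% (0.772 to 1.83) and 1.27% (0.584 to 2.75; Fisher's exact test, adjusted p = 2.75e-22 and 4.15e-10). Near joins were 1.66% (0.993 to 2.77), while PQR/PQR replicates 1 and 2 had 0.297% (0.127 to 0.694) and 0% (0 to 0.807; exact test, adjusted p = 7.35e-04 and 0.00498). Over listed IgH junctions outside Sμ with preys of at least 50 bp, near joins were no longer called (largest adjusted exact p = 0.0526). The near and far shares overlap in construction with the interval shares and are not separate evidence.

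**Figure D2:**
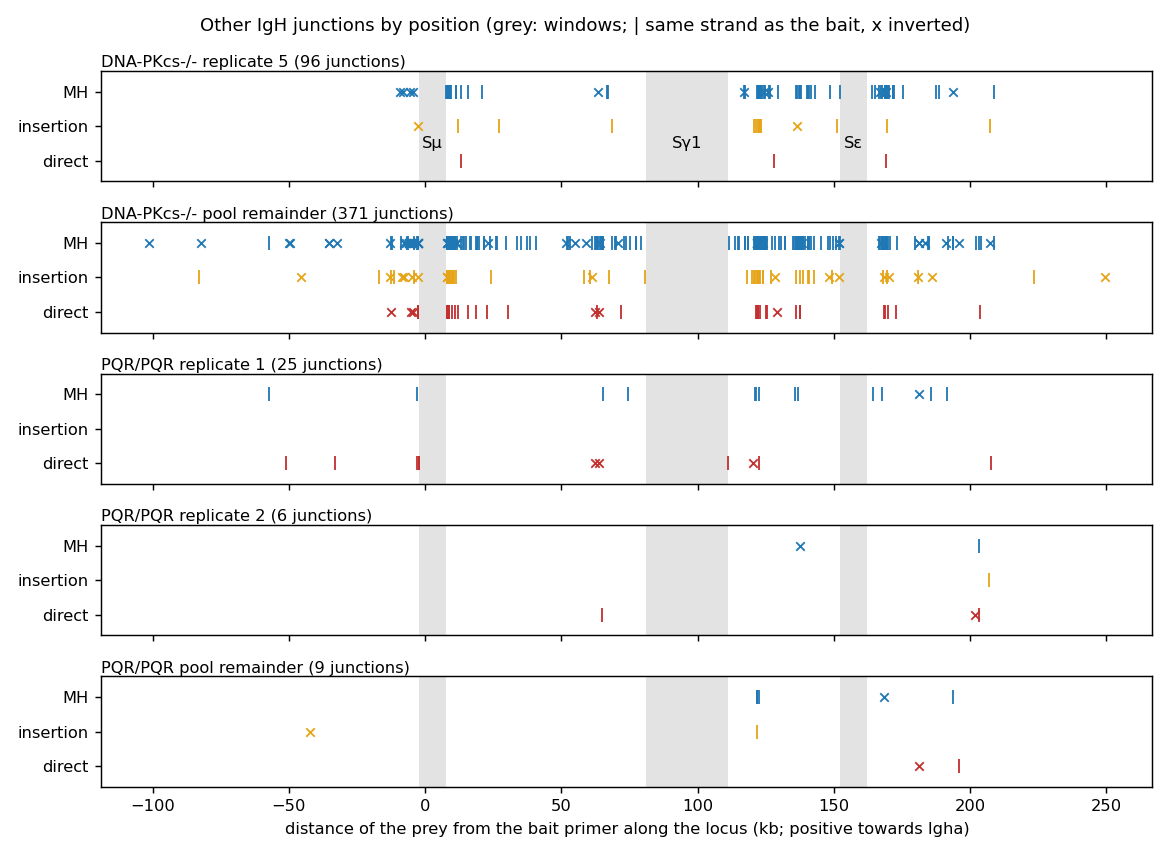
Position of every other IgH junction along the locus (horizontal axis, kb from the bait primer, positive towards Igha), one panel per library or pool remainder, with direct, insertion and MH joins in rows. Vertical ticks are preys on the bait's strand, crosses are inverted preys and grey bands are the 3 S windows. In DNA-PKcs-/- replicate 5, 87 of the 96 joins lie in 8 stretches. Stretches were not sought among the 25 and 6 joins of the PQR/PQR replicates.

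In DNA-PKcs-/- replicate 5 the joins gathered in stretches. Chaining joins no more than 3 kb apart gave 8 stretches of at least 3 joins, which held 87 of the 96. These limits were chosen from this library, so the count describes it and is not a test. Stretches were not sought in the PQR/PQR libraries, so whether their fewer joins gather as well was not examined. The same stretches held 9 of the 25 joins of PQR/PQR replicate 1, 1 of the 6 of replicate 2, 241 of the 371 listed joins of the DNA-PKcs-/- pool remainder (65.0%, 60.0 to 69.6) and 5 of the 9 of the PQR/PQR remainder.

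The fullest stretch lay in the Ighg2b and Ighg2c interval, at chr12:114539816-114548486, and its nearest point was 9.51 kb from the Sγ1 window. It held 25 joins of DNA-PKcs-/- replicate 5 (2.97% of the library) and 76 of the DNA-PKcs-/- remainder (0.643%), against 4 of PQR/PQR replicate 1 (0.238%), 0 of replicate 2 and 4 of the PQR/PQR remainder (0.199%). Its densest 1 kb bins in DNA-PKcs-/- replicate 5 began at 114546000 with 7 joins and at 114547000 with 6, and these were also the fullest bins of the interval in the DNA-PKcs-/- remainder, with 21 and 32. Bins at 114544000 and 114545000 held 3 joins each. A second stretch of the interval, on the side of Sε at chr12:114526021-114533034, held 12 joins of DNA-PKcs-/- replicate 5 and 31 of the remainder, against 1 each of PQR/PQR replicates 1 and 2. Its bins at 114531000 and 114532000 held 3 joins each, the first of which held 10 in the remainder, and a last bin of 3 lay at 114552000, where the DNA-PKcs-/- remainder had 0 joins in the stretch of those 3. The gene order puts Ighg2b and then Ighg2c in this interval, but neither stretch was assigned to one of them. The joins of DNA-PKcs-/- replicate 5 in this interval lay from 0.052 to 18.2 kb from a window.

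On the Igha side, 20 of the 26 joins of DNA-PKcs-/- replicate 5 lay at chr12:114497176-114505284, from 1.72 to 9.82 kb past the Sε window, where the DNA-PKcs-/- remainder had 27, against 2 in PQR/PQR replicate 1, 0 in replicate 2 and 1 in the PQR/PQR remainder. The bin at 114499000 held 8 joins, and those at 114497000, 114500000 and 114502000 held 3 each. In the DNA-PKcs-/- remainder the fullest bin of this side began at 114500000 with 10 joins, followed by 114499000 and 114501000 with 6 each. The farthest of the interval lay 46.5 kb past the window. The median distance past the window was 7.14 kb for the 26 joins of DNA-PKcs-/- replicate 5, against 21.4 kb for the 6 of PQR/PQR replicate 1 and 41.1 kb for the 4 of replicate 2, which spanned 39.6 to 44.7 kb. These distances were not tested.

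Between the Sμ and Sγ1 windows, 16 of the 22 joins of DNA-PKcs-/- replicate 5 lay directly below the Sμ window, at chr12:114653364-114661487, the side on which Ighm and Ighd follow Sμ. The DNA-PKcs-/- remainder had 69 of its 128 joins of the interval there, and PQR/PQR replicate 1, replicate 2 and the PQR/PQR remainder had 0. The nearest join lay 0.013 kb from the window, and the bins at 114660000 and 114661000 held 4 and 5 joins, the second of which is cut by the window edge. The same bins were the fullest of the interval in the remainder, with 23 and 14 joins, followed by 114658000 with 13. In the 2 kb below the edge DNA-PKcs-/- replicate 5 had 10 joins, beside 20 in the first 2 kb inside the window, and the remainder had 44 beside 169. PQR/PQR replicate 2 had 0 beside 1. In DNA-PKcs-/- replicate 5 the first kb outside held 7 junctions and the first kb inside held 11. The share of all junctions in those 2 kb was 1.19% (0.646 to 2.17), against 0 of 1681 and 0 of 472, for which the same Wilson intervals reach 0.228% and 0.807%, so that the interval of PQR/PQR replicate 2 overlaps that of DNA-PKcs-/- replicate 5. This distance was chosen after the counts were seen, so these shares are a description. The other joins of DNA-PKcs-/- replicate 5 in the interval included 3 at chr12:114600816-114602468, 12.8 kb from the Sγ1 window, where the DNA-PKcs-/- remainder had 1. The 4 of PQR/PQR replicate 1 lay 6.64 to 19.0 kb from a window, and the 1 of replicate 2 lay 16.4 kb away.

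**Figure D3:**
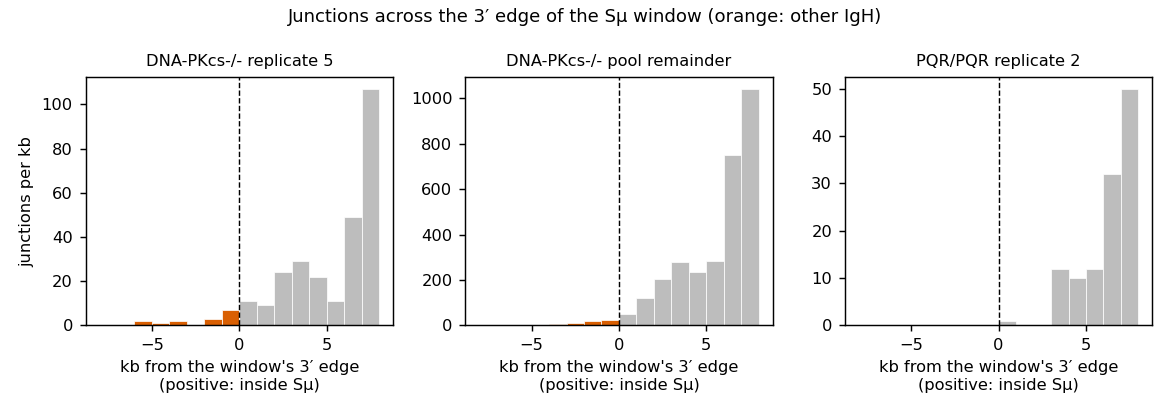
Junctions per kb (vertical axis, own scale in each panel) across the edge of the Sμ window that faces Ighm (horizontal axis, kb, positive inside the window), with other IgH joins in orange and listed Sμ joins in grey. DNA-PKcs-/- replicate 5 had 7 joins in the first kb outside and its pool remainder had 23, against 0 in PQR/PQR replicate 2; PQR/PQR replicate 1 is not drawn because its list of Sμ junctions was not used.

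In DNA-PKcs-/- replicate 5 fewer joins lay just outside the other edges. Past the edge of the Sε window that faces Ighg2c, DNA-PKcs-/- replicate 5 had 2 joins within 2 kb beside 17 inside, while PQR/PQR replicate 1 had 0 beside 160 and replicate 2 had 0 beside 28. Past the upper edge of Sμ, DNA-PKcs-/- replicate 5 had 1 join within 2 kb, against 4 in PQR/PQR replicate 1. The DNA-PKcs-/- remainder had 15 joins past the upper edge of Sμ beside 255 inside, and 6 past the same edge of Sε as above beside 113 inside. These counts were not tested.

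Above Sμ the joins of DNA-PKcs-/- replicate 5 and PQR/PQR replicate 1 were few, and each library's lay on 1 strand. All 5 joins of DNA-PKcs-/- replicate 5 were inverted and lay 0.41 to 6.96 kb past the window. All 7 of PQR/PQR replicate 1 were on the bait's strand, 4 of them within 10 kb and the farthest at 55.1 kb, and 5 of the 7 were direct joins. A prey on the bait's strand upstream of the bait is not a simple deletion on the same chromosome. The strands were compared after these counts were seen, so they are given as a description, without a test result. The joins of DNA-PKcs-/- replicate 5 fell into 5 separate 1 kb bins, and the fullest bins of the DNA-PKcs-/- remainder began at 114671000, 114673000 and 114681000, with 9, 7 and 6 joins. That remainder was mixed in strand, with 34 of 51 joins inverted (66.7%, 53.0 to 78.0), and the 1 join of the PQR/PQR remainder was inverted, so the pattern of PQR/PQR replicate 1 rests on 7 joins of 1 library.

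Over all intervals no difference in the inverted share was called. DNA-PKcs-/- replicate 5 had 14 of 96 joins inverted (14.6%, 8.89 to 23.0), while PQR/PQR replicate 1 had 4 of 25 (16.0%, 6.4 to 34.7) and PQR/PQR replicate 2 had 2 of 6 (33.3%, 9.68 to 70.0; Fisher's exact test, adjusted p = 1.0 and 0.296). Within DNA-PKcs-/- replicate 5 1 of 22 joins was inverted in Ighd and Ighg3 (4.55%), 4 of 43 in Ighg2b and Ighg2c (9.3%) and 4 of 26 on the Igha side (15.4%, 6.15 to 33.5). The share over all of its other IgH joins was 3.21 points above the 11.4% of its Sγ1 and Sε junctions (38 of 334). That difference was not called (adjusted exact p = 0.76 over 8 tests within libraries). The 14 inverted joins include all 5 joins above Sμ, where PQR/PQR replicate 1 had 0 of 7 inverted. Sγ1 and Sε lie downstream of the bait, so these 5 have no counterpart among them. Inversion among downstream joins alone was not compared. In PQR/PQR replicate 1 the 16.0% stood against 5.91% in Sγ1 and Sε (63 of 1066), with an adjusted exact p of 0.165.

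**Figure D4:**
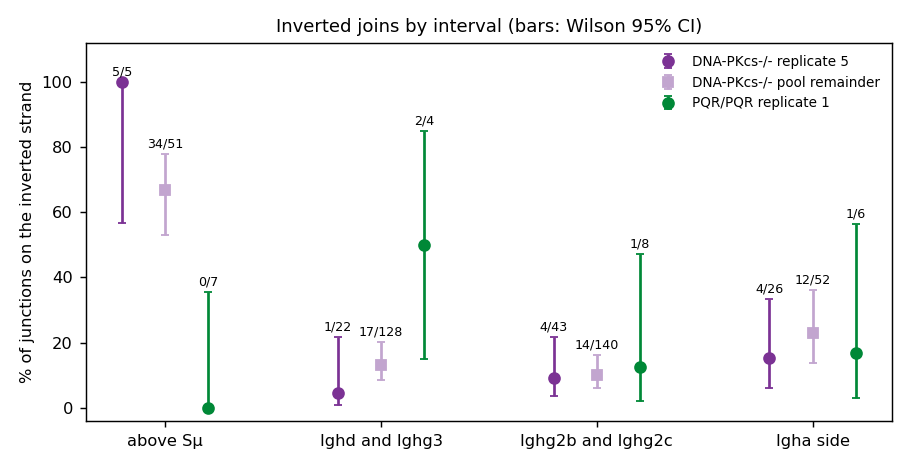
Share of inverted joins (vertical axis, %) by interval in DNA-PKcs-/- replicate 5, its pool remainder and PQR/PQR replicate 1, with Wilson 95% confidence intervals and counts above them. Above Sμ 5 of 5, 34 of 51 and 0 of 7 joins were inverted, while downstream the 3 sets overlap.

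The joins of DNA-PKcs-/- replicate 5 outside the windows were made almost entirely with MH or an insertion. Of its 96 joins 78 had MH, 15 had an insertion and 3 were direct. PQR/PQR replicate 1 had 14, 0 and 11 of 25, and replicate 2 had 2, 1 and 3 of 6. The 3 direct joins of DNA-PKcs-/- replicate 5 lay in 3 different intervals. Of the 11 in PQR/PQR replicate 1, 5 were among its 7 joins above Sμ. Its other intervals had 2 of 4 (Ighd and Ighg3), 3 of 8 (Ighg2b and Ighg2c) and 1 of 6 (Igha side). Direct joins were 3.12% in DNA-PKcs-/- replicate 5 (1.07 to 8.79), while PQR/PQR replicate 1 had 44.0% (26.7 to 62.9) and the 3 of 6 in PQR/PQR replicate 2 gave an interval of 18.8 to 81.2 (Fisher's exact test, adjusted p = 1.94e-06 and 0.00362). In the pool remainders they were 9.97% (37 of 371) for DNA-PKcs-/-, against 22.2% (2 of 9) for PQR/PQR, and with those in place of the libraries the difference was not called.

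Within DNA-PKcs-/- replicate 5 the direct share was also lower outside the windows than in the S regions, at 3.12% against 13.5% (84 of 621, 11.1 to 16.4; Fisher's exact test, adjusted p = 0.017). The S regions themselves ranged from 9.06% in Sμ to 13.3% in Sγ1 and 24.4% in Sε. With preys of at least 50 bp only, the difference was -10.2 points and its adjusted exact p 0.0515. In the DNA-PKcs-/- remainder direct joins were 9.97% outside the windows (7.32 to 13.4), against 11.5% in the S regions (1257 of 10886, 11.0 to 12.2), with overlapping intervals, so the lower share was not seen in the rest of the pool at this depth. Its S regions ranged from 8.52% in Sμ to 12.4% in Sγ1 and 18.4% in Sε. In PQR/PQR replicate 1 direct joins were 44.0% outside the windows, against 25.5% in the S regions (391 of 1534, 23.4 to 27.7). This difference of 18.5 points was not called (adjusted exact p = 0.165). The 44.0% includes the 5 direct joins above Sμ, and direct shares of downstream joins alone were not compared. Whether the difference between outside and inside itself differed between these libraries was not tested.

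No difference in the share of joins with MH of 4 bp or longer was called. Such joins were 18.8% of other IgH joins in DNA-PKcs-/- replicate 5 (18 of 96, 12.2 to 27.7), against 19.4% of its S region joins (120 of 620, 16.4 to 22.6; Fisher's exact test, adjusted p = 1.0). PQR/PQR replicate 1 had 3 of 25 (12.0%) and PQR/PQR replicate 2 had 0 of 6, each with an adjusted exact p of 0.618. With the limit at 2 bp the share in DNA-PKcs-/- replicate 5 was 44.4 points above the PQR/PQR mean, and that difference was called. Most MH joins of DNA-PKcs-/- replicate 5 had 2 or 3 bp, 22 and 26 of the 96, while PQR/PQR replicate 1 had 4 and 1 of its 25. Mean MH over joins without insertion, direct joins counted as having none, was 2.74 ± 0.164 bp (SEM over 81 joins) in DNA-PKcs-/- replicate 5, against 1.32 ± 0.35 bp (25 joins) in PQR/PQR replicate 1 and 0.6 ± 0.4 bp (5 joins) in replicate 2. Among MH joins alone it was 2.85 ± 0.158 bp (78 joins), against 2.36 ± 0.464 bp (14 joins) in replicate 1. These means were not tested.

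**Figure D5:**
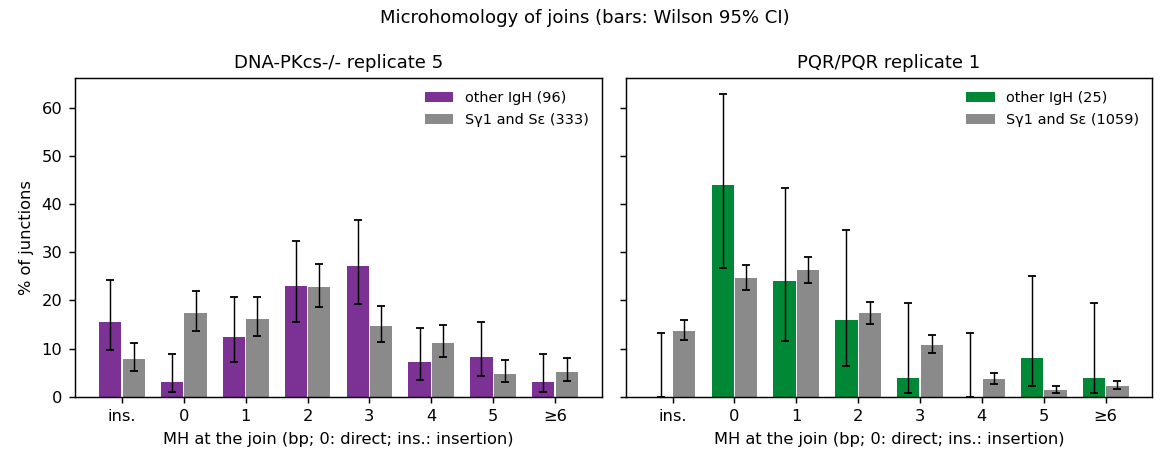
Share of joins (vertical axis, %) by length of MH in bp (horizontal axis, with insertions first and 0 for direct joins) for other IgH joins and for Sγ1 and Sε joins, in DNA-PKcs-/- replicate 5 (left) and PQR/PQR replicate 1 (right), with Wilson 95% confidence intervals. Other IgH joins were direct in 3.12% of cases on the left and 44.0% on the right.

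Between far and near joins of DNA-PKcs-/- replicate 5 no difference in these features was detectable at this depth. MH of 4 bp or longer was found in 15 of 82 far joins (18.3%, 11.4 to 28.0), against 3 of 14 near joins (21.4%, 7.57 to 47.6). Inverted preys were 13 of 82 far joins (15.9%, 9.51 to 25.3), against 1 of 14 near joins (7.14%, 1.27 to 31.5), and both Fisher's exact tests gave an adjusted p of 0.826. Mean MH by interval, which was not tested, was 2.5 bp above Sμ, 2.58 ± 0.414 bp in Ighd and Ighg3, 2.85 ± 0.224 bp in Ighg2b and Ighg2c and 2.75 ± 0.32 bp on the Igha side (SEM over 4, 19, 34 and 24 joins). Insertions were 9 of 43 joins in Ighg2b and Ighg2c, 7 of them in the fullest stretch. They were 3 of 22 in Ighd and Ighg3, 2 of 26 on the Igha side and 1 of 5 above Sμ.

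The germline sequence around the preys was searched for AGCT, a core motif of S region repeats and a preferred target of AID. AGCT reads the same on both strands, and the search covered the 20 bases centred on each prey end. It was present for 15 of the 96 joins of DNA-PKcs-/- replicate 5 (15.6%, 9.7 to 24.2), against 37.6% of its Sμ, 23.2% of its Sγ1 and 40.2% of its Sε joins. The interval of Sγ1 (18.0 to 29.4) overlaps that of the other IgH joins. GAGCT or GGGCT, searched on either strand, was present for 16.7% of these other IgH joins (10.5 to 25.4). In Sγ1 that share was 14.7% (10.5 to 20.1), in Sμ 33.1% and in Sε 51.6%. In the stretch below the Sμ window AGCT was present for 1 of 16 joins, and for 5 of 69 in the DNA-PKcs-/- remainder (7.25%). In the stretch on the Igha side it was 5 of 20, and 13 of 27 in the remainder (48.1%), and in the fullest Ighg2b and Ighg2c stretch 4 of 25, and 31 of 76 (40.8%). In PQR/PQR replicate 1 it was 7 of 25, and in replicate 2 it was 3 of 6. A window without these letters says only that they are not in those 20 bases, and these shares were not tested.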

How the data were processed

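Libraries were made from genomic DNA of cultured B cells with a nested primer in 5′ Sμ, digested with AflII to remove germline sequence and read on a MiSeq, per the labels' protocols. The submitters' processing notes name Bowtie2 and the build mm9, per the labels, while tool versions, read filters and a junction caller were not given in the sources used here. As deposited by the authors, the workbooks hold counts of junctions by region, and lists of junctions with positions in mm9 and alignment bounds, with no normalization. One library per sample and one pool per genotype were used. The remainder of a pool is the pool without the reads of these libraries, matched by read name. For PQR/PQR replicate 1 the Sμ list was left unused, so Sμ classes come from the count sheet.

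MH was the overlap of bait and prey alignments in a read, as bait end minus prey start plus 1, with 0 as direct and negative values as insertions. Depth was 842 junctions in DNA-PKcs-/- replicate 5, 1681 in PQR/PQR replicate 1 and 472 in PQR/PQR replicate 2. Shares carry Wilson 95% intervals, and a count of 0 allows 3 counts of the total. Shares were compared by two-sided Fisher's exact tests with Benjamini-Hochberg adjustment over 20 tests between libraries and 8 within libraries (Python 3.11.15, scipy 1.17.1, pandas 2.3.3, numpy 2.4.6). Calls between libraries needed an adjusted p under 0.05 against PQR/PQR replicates 1 and 2 alike, with one direction. Simulated counts were run through this rule with unadjusted p only, so the rule as used was not tested. Settings with the remainders, or with PQR/PQR replicate 1 or 2 dropped, were adjusted over their own tests alone. DNA-PKcs-/- replicate 5 and PQR/PQR replicate 1 share a sequencing run, so that comparison is within a run, and PQR/PQR replicate 2 comes from another.

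The members, intervals, tests and naming rule were chosen with earlier results of these data known. The rule names, per interval, every 1 kb bin with 3 or more joins in a library, the 3 fullest bins of a pool remainder, the nearest and farthest join of DNA-PKcs-/- replicate 5, the longest MH and the direct joins. Gene order comes from a RefSeq table of GRCm38.p6, used for order alone. Alternatives dropped PQR/PQR replicate 1 or 2, took the pool remainders, collapsed repeated junctions, required preys of 50 bp, and changed denominators, the near limit, the MH limit and the S regions compared.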

Additional observations from a re-analysis of the deposited data

How the results depend on the processing

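Of 119 values under other settings, 102 were counted as keeping direction and side of the threshold. These include all values without PQR/PQR replicate 1 or replicate 2 and with repeated junctions collapsed. They also include all values with IgH junctions, or those outside Sγ1, as denominator in the libraries. Among the 102 is a difference of 0, which has no direction. It is that in MH of 4 bp or longer from S regions within DNA-PKcs-/- replicate 5, over joins without insertion. The cause of the following changes was not tested. With the pool remainders in place of the libraries, the share above Sμ became called (0.382 points), and those of the Igha side (0.241 points) and of direct joins (-12.2 points) were no longer called. With preys of at least 50 bp over listed junctions outside Sμ, the Igha side (4.82 points) and near joins (2.49 points) missed the threshold, as did the direct share within DNA-PKcs-/- replicate 5 (-10.2 points). The uncalled difference of far from near joins in MH of 4 bp or longer turned to 9.77 points at a near limit of 1 kb and 2.78 at 5 kb, and that in inversion to -2.78 at 5 kb. With MH of 2 bp or longer, the share became called between libraries (44.4 points), and within DNA-PKcs-/- replicate 5 the uncalled difference from S regions turned to 10.5 points. Against all S regions, Sμ included, the uncalled inverted difference turned to -9.89 points. Alternatives chosen after seeing the data took the remainders over IgH junctions outside Sγ1, where Ighg2b and Ighg2c (1.62 points), near joins (1.62) and far joins (3.39) were no longer called and the Igha side turned to -0.5 points, and the remainders with the bait aligned at the primer, where the direct share (-11.9 points) was not called. The sheets of large insertions held 8 junctions for DNA-PKcs-/-, against 14 and 1 for the PQR/PQR libraries, of which 0 were other IgH joins, and adding them to the totals gave 9.92 points for the other IgH share. Depth limits the PQR/PQR values, which rest on 25 and 6 joins. No paired analysis was possible because DNA-PKcs-/- replicate 5 shares no replicate number with the PQR/PQR libraries.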

Other observations

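The baits of other IgH joins differed between DNA-PKcs-/- replicate 5 and the rest of its pool at the AflII site, which the enzyme used on germline DNA cuts. Of the joins whose bait alignment began at the primer, 2 of 96 in DNA-PKcs-/- replicate 5 held the whole site in the bait, against 78 of 359 in the DNA-PKcs-/- pool remainder. PQR/PQR replicate 1 had 1 of 25, replicate 2 had 0 of 6 and the PQR/PQR remainder had 0 of 9. The median bait was 56 bp long in DNA-PKcs-/- replicate 5 and 67 bp in the remainder.

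The 3 libraries had 0 listed joins with a bait aligned elsewhere, 0 repeated junctions and 0 repeated read names, against 12, 11 and 3 in the DNA-PKcs-/- remainder. Preys under 50 bp were 12 of 96 in DNA-PKcs-/- replicate 5, with a median prey of 136.0 bp, against 82 of 371 in the remainder, with a median of 90.0 bp. In the remainder 11 of the 371 came from the sequencing run of DNA-PKcs-/- replicate 5.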
